A study of Bos taurus with 6 samples.

Results

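INHA, INHBA, INHBB and FST were examined in bovine oocytes by 2-colour microarray. INHA encodes the inhibin alpha subunit, INHBA and INHBB encode the beta A and beta B subunits that inhibins and activins share, and FST encodes follistatin, which binds activin. They were chosen from earlier results of the same comparison, in which INHA and INHBA had large ratios in 1 animal. Their ratios are therefore given as descriptions, without a test. Each of the 4 symbols was carried by 1 probe in the platform annotation, so that 4 of 43794 probes, and 4 of 15229 gene symbols, are described. The probes are EMBV3_19489 for INHA, EMBV3_39728 for INHBA, EMBV3_39963 for INHBB and EMBV3_10434 for FST.

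Inhibins are dimers of the alpha subunit with a beta subunit, and activins are dimers of beta subunits. Activin binds the type II receptors ACVR2A and ACVR2B, which recruit the type I receptor ACVR1B and lead to phosphorylation of SMAD2 and SMAD3. Inhibin, held by the co-receptor betaglycan (TGFBR3), occupies the type II receptors and so opposes activin, which lowers secretion of follicle-stimulating hormone (FSH) by the pituitary. Granulosa cells are the main source of inhibin in the follicle. In cattle, follistatin transcripts are also known from the oocyte and the early embryo.

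Oocyte RNA of 3 Holstein cows of parity 2 was measured on 6 arrays. Every animal, control cycles included, received FSH at 12 h intervals for 3 days, followed by coasting, a period of 68 h without FSH. Control oocytes came from coasting alone, and antagonist oocytes came from the same cow with a gonadotropin-releasing hormone (GnRH) antagonist, named cetrotide in the labels, given throughout coasting. Oocytes were collected by ovum pick-up and mechanically freed of cumulus cells, and their RNA was amplified. The labels give no age of the cows and no number of oocytes per RNA pool. Each cow gave 1 control and 1 antagonist RNA, from collections at least a month apart, so differences between collections or RNA preparations cannot be told apart from those between conditions.

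Both RNAs of a cow were hybridised together, in both dye orientations. A reading is 1 condition on 1 array, which gives 6 readings per condition and 12 in all. A reading counted as above background when its raw intensity was over a threshold set from the channel's negative controls, their mean with 2 SD added, which lay between 170.5 and 247. By this measure 55.8% to 77.5% of all probes were above background per reading, and 32527 probes with at least 3 of 6 such readings in either condition were tested. A probe could pass through 1 condition alone. INHA, INHBA, INHBB and FST all passed, 3 of these 4 with all 12 readings above background, as did 63.7% of the probes tested. By a number in the name of each scanner file, 4 arrays shared a slide: both of cow 2, and for cows 1 and 3 the array with antagonist in Cy5. In cows 1 and 3 slide and dye orientation therefore cannot be told apart. No probe passed limma's test of antagonist against control at an adjusted p under 0.05 (0%), the lowest adjusted p was 0.28, and 4143 probes (12.7%) had an unadjusted p under 0.05.

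The INHA and INHBA signals were higher with antagonist in cow 3, on both of its arrays, and in cows 1 and 2 their ratios were small or of the other sign. In pooled RNA, more cells of a type and more RNA per cell cannot be told apart. FST had a positive ratio in cow 3 as well, close to background. INHBB had no ratio that held when the dyes were exchanged. Ratios of at least 1 on the log2 scale in cow 3 were rare over all probes, at 0.91% of those tested, and INHA and INHBA were 2 of them. Since this value led to the choice of these genes, nothing is read from that share. None of the 4 genes had the same sign on all 6 arrays, as 12.1% of the tested probes had.

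INHA was dim. In cow 1 its raw spot intensity was 277 and 229 with antagonist and 187 and 215 in the control, where the array with control in Cy5 stands first in each pair. In cow 2 it was 342 and 314 with antagonist and 284 and 337 in the control. In cow 3 it was 668 and 480.4 with antagonist and 214 and 238 in the control. The antagonist readings of cow 3 lay above every other reading of the probe, and the remaining antagonist readings overlapped the control readings. As multiples of the background threshold, cow 3 gave 3.14 and 2.36 with antagonist and 1.23 and 1.11 in the control. All other readings of INHA lay between 1.10 and 1.67 times the threshold.

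After normexp background correction and loess, the log2 ratio of INHA, antagonist over control, was 0.17 and 0.23 on the arrays of cow 1. It was -0.26 and -0.24 on those of cow 2, and 1.49 and 1.30 on those of cow 3. The dye orientations thus gave the same sign in every cow and differed by at most 0.19. The cow means were 0.20, -0.25 and 1.40, the last a 2.64-fold ratio. Over the cows the ratio was 0.45 ± 0.85 (SD, n = 3), with a mean smaller than its SD, and without cow 3 the mean was -0.03. The log2 ratios in the authors' deposited table gave 0.23, -0.24 and 1.31 for the 3 cows.

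INHBA, whose product forms activin A as a homodimer and inhibin A with the alpha subunit, was above background in all 12 readings by a wider margin. In cow 1 its raw intensity was 567 and 449 with antagonist and 551 and 706 in the control. In cow 2 it was 1077 and 903 with antagonist and 744 and 1062 in the control. In cow 3 it was 2906 and 2102 with antagonist and 829 and 1015 in the control. The antagonist readings of cow 3 were 13.7 and 10.3 times the background threshold. All other readings of INHBA lay between 2.46 and 5.24 times the threshold. Control readings began at 3.23, so both antagonist readings of cow 1, at 2.70 and 2.46, lay below every control reading, and both of cow 3 lay above.

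The log2 ratio of INHBA was -0.27 and -0.54 on the arrays of cow 1, 0.36 and -0.11 on those of cow 2, and 1.75 and 1.21 on those of cow 3. In cow 2 the sign changed with the dyes, so that its mean of 0.12 is smaller than the gap of 0.47 between its arrays. The means of cows 1 and 3 were -0.40 and 1.48, and that of cow 3 is a 2.79-fold ratio. Over the cows the ratio was 0.40 ± 0.97 (SD, n = 3), and without cow 3 the mean was -0.14. The authors' deposited table gave -0.41, 0.12 and 1.46. In cow 3 the array on the shared slide had the smaller of both INHBA ratios, 1.21.

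**Figure D1:**
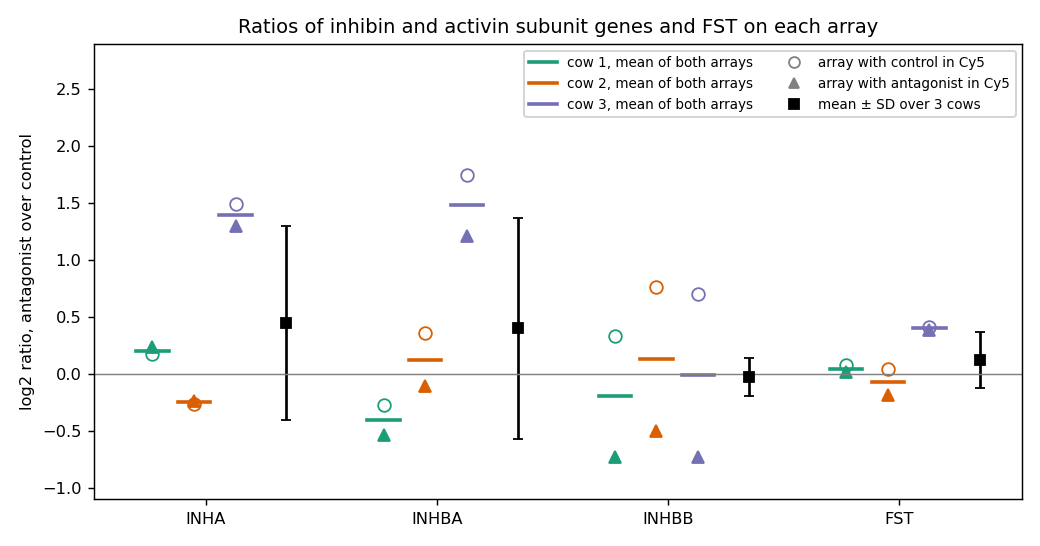
Log2 ratio of antagonist over control (vertical axis) for INHA, INHBA, INHBB and FST. Circles are arrays with control in Cy5, triangles arrays with antagonist in Cy5, bars the mean of a cow's arrays and squares the mean ± SD over 3 cows; INHA and INHBA of cow 3 lie at 1.40 and 1.48, and the circles and triangles of INHBB lie on opposite sides of 0 in each cow.

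INHBB, the beta B subunit gene of activin B and inhibin B, had no ratio that held in both dye orientations. Its raw intensity was 379.6 and 244 with antagonist and 244 and 415 in the control of cow 1. In cow 2 it was 478 and 295 with antagonist and 229 and 355 in the control. In cow 3 it was 417.5 and 273 with antagonist and 224 and 415 in the control. On each array the Cy3 reading was the higher, whichever RNA it held. The log2 ratios were 0.33 and -0.73, 0.76 and -0.50, and 0.70 and -0.73 on the arrays of cows 1, 2 and 3.

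Averaged over both orientations, INHBB gave -0.20, 0.13 and -0.01 in the 3 cows and -0.03 ± 0.17 overall (SD, n = 3). Its log2 ratio of Cy5 over Cy3, once the conditions were averaged, was -0.63 ± 0.092 (SD over cows, n = 3). A dye difference at least this far from 0 was found for 1.64% of the tested probes. The corresponding value was -0.21 for INHBA, -0.05 for FST and -0.02 for INHA. The mean of INHBB was thus the balance of opposite values of 0.60 and -0.65 in the 2 orientations.

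FST lay at background. Its raw intensity was 214 and 173 with antagonist and 155.5 and 190.0 in the control of cow 1, 272 and 225 against 187 and 223 in cow 2, and 280.1 and 241 against 167 and 195 in cow 3. Of 6 readings per condition, 4 with antagonist and 3 in the control were above background. Both antagonist readings of cow 3 were above it, at 1.32 and 1.18 times the threshold, and both of its control readings were below it. The log2 ratios of FST were 0.07 and 0.01 in cow 1, 0.04 and -0.19 in cow 2, and 0.41 and 0.39 in cow 3. Over the cows the ratio was 0.12 ± 0.25 (SD, n = 3), and without cow 3 it was -0.01. Since the control of cow 3 has only a bound at background, its FST ratio of 0.40 carries no firm size.

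To see which condition set the ratios apart, single-channel log2 levels were taken after arrays had been scaled to a common intensity distribution. The INHBA level was 9.27, 9.76 and 9.75 in the control oocytes of cows 1, 2 and 3 and 8.87, 9.88 and 11.23 in the antagonist oocytes. The control of cow 3 lay within the range of the other controls, and the antagonist level of cow 3 exceeded the mean of cows 1 and 2 by 1.85. For INHA the control levels were 7.57, 8.19 and 7.61, and the antagonist levels were 7.77, 7.94 and 9.01. The antagonist level of cow 3 was 1.15 above the mean of the other cows, while its control differed from theirs by -0.27.

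The INHBA level was also lower in cow 1 than in cow 2, by 0.49 in the control and 1.02 with antagonist. These differences between animals rest on 1 RNA per condition and cow. INHBB levels spanned 0.25 over the cows in the control and 0.08 with antagonist. FST levels spanned 0.19 in the control and 0.38 with antagonist. The mean INHBA level was 9.59 ± 0.28 in the control and 9.99 ± 1.19 with antagonist (SD, n = 3), and that of INHA 7.79 ± 0.35 and 8.24 ± 0.67. For both genes the conditions overlapped. The SD was wider with antagonist when cow 3, whose ratios led to the choice of these genes, was included. Between cows 1 and 2 alone, INHA levels differed by 0.62 in the control and 0.17 with antagonist, and INHBA levels by 0.49 and 1.02. Levels are not compared between genes, since each comes from a different probe.

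**Figure D2:**
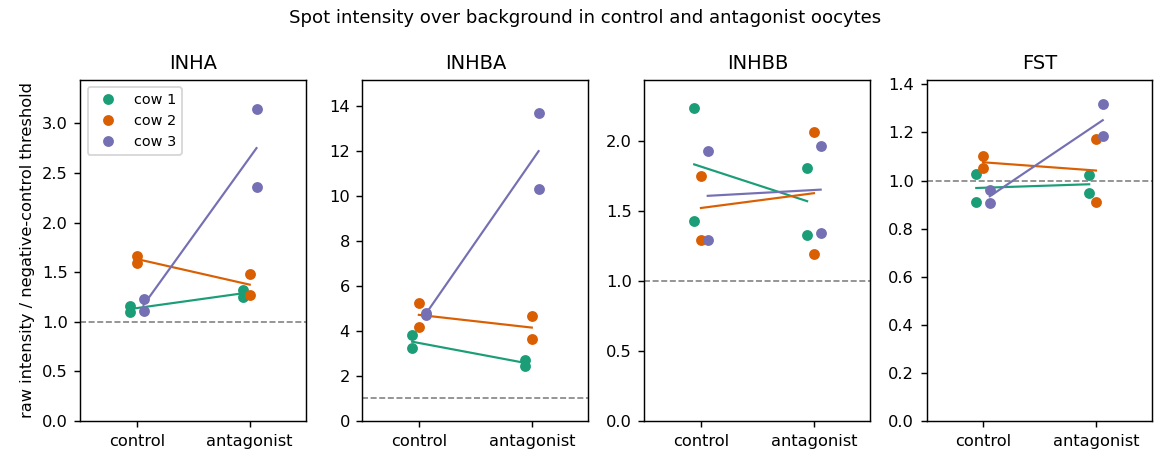
Raw spot intensity divided by the background threshold of its channel (vertical axis, dashed line at 1) in control and antagonist oocytes. Points are arrays, colours cows and lines join the means of a cow; the antagonist points of cow 3 lie at 13.7 and 10.3 for INHBA and at 3.14 and 2.36 for INHA, above all others.

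Few probes had the pattern of INHA and INHBA. Of 296 tested probes with a log2 ratio of at least 1 in cow 3, 261 also had at least 1 in cow 2, and only 13 lay within 0.5 of 0 in both cow 1 and cow 2. INHA and INHBA were among these 13, a window chosen after their values were seen. Of the others, 5 carried a symbol. STRA6, a membrane receptor for retinol-binding protein, had 1.76 in cow 3, and its dimmer second probe had 0.07. VIM, the intermediate filament protein vimentin of mesenchymal and granulosa cells, had 1.52. MARVELD1, a MARVEL-domain protein, had 1.25, DGAT2, an enzyme of triglyceride synthesis, had 1.16 and on its second probe 0.56, and PFKL, the liver form of the glycolytic enzyme phosphofructokinase, had 1.12. The other 6 probes had no symbol.

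**Figure D3:**
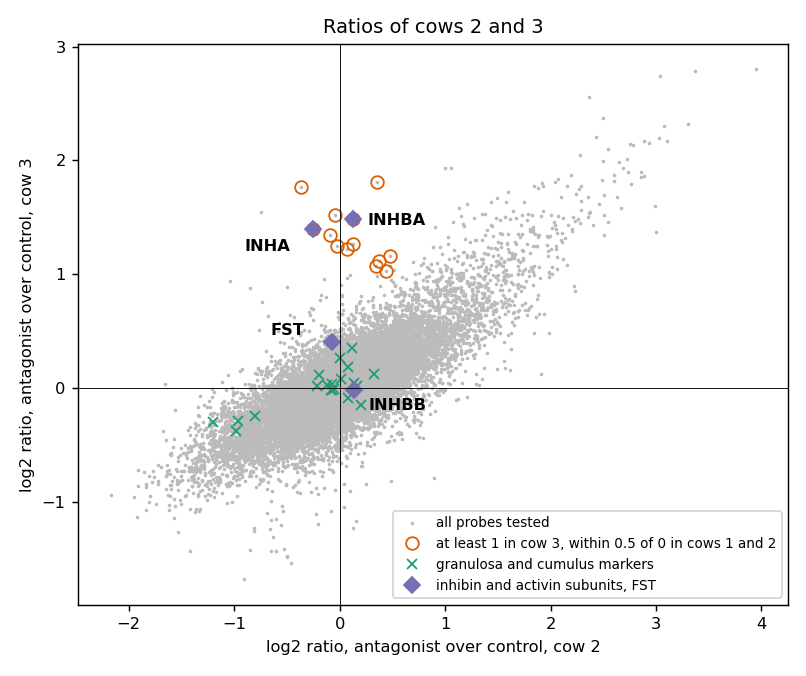
Log2 ratio of antagonist over control in cow 2 (horizontal) and cow 3 (vertical) for all 32527 tested probes. Diamonds mark INHA, INHBA, INHBB and FST, crosses the granulosa and cumulus markers, and open circles the 13 probes at 1 or more in cow 3 and within 0.5 of 0 in cows 1 and 2; INHA and INHBA lie in that group, away from the diagonal band.

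Likeness was also measured as the Euclidean distance between log2 ratios over the 6 arrays, among 12313 other gene symbols, each by its brightest probe. The nearest genes to INHBA were PFKL at 0.76, STRA6 at 0.84, MARVELD1 at 0.97, INHA at 1.13 and VIM at 1.15. The nearest to INHA were VIM at 0.46, MARVELD1 at 0.72, SRGN, the proteoglycan serglycin of secretory granules, at 0.95, NCOA7 at 0.98 and STRA6 at 0.99. INHBA ranked 12 for INHA, and FST ranked 67. For INHBA, FST ranked 308 and INHBB 7571. The ranks were not mutual: counted from FST, INHA ranked 10450 and INHBA 11181, while INHA ranked 4 for INHBA. Pearson's r of INHA over the 6 arrays was 0.99 with VIM, 0.94 with FST, 0.83 with INHBA and -0.0091 with INHBB. The 6 arrays come from 3 RNA pairs, and these measures rest largely on cow 3.

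Markers of other follicle cells were set beside these values. The list of granulosa and cumulus markers left out INHA and INHBA. VIM, named above as a protein of mesenchymal and granulosa cells, was listed with theca and stroma instead. The granulosa and cumulus list had a median log2 ratio of 0.02 in cow 3 over 20 measured genes. All 20 lay between -0.38 and 0.35 there by their brightest probes. By these probes, none of the 20 had an unadjusted p under 0.05 by limma, against 12.7% of all probes tested. Of the 20, 7 had a mean ratio above 0, against 51.4% of all probes. Above background in all 12 readings were 14 of the 20, against 63.7% of the probes tested. Dimmer probes of CDH2 and PRSS35 were lower with antagonist, with mean ratios of -0.17 and -0.38 (limma, unadjusted p = 0.032 and 0.046). AMH, FOXL2 and CYP11A1, which mark granulosa cells by anti-Mullerian hormone, a transcription factor and the first step of steroid synthesis, were above background in 0 of 12 readings. Neither of 2 probes of LHCGR, the receptor of luteinizing hormone, was above it in more than 1 reading. FSHR, the FSH receptor gene, was above background in 3 of 6 readings per condition, with a cow 3 ratio of -0.15, and CYP19A1, the aromatase gene, in 5 of 6, with -0.02.

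Other genes of that list were well above background in both conditions without a high ratio in cow 3. STAR, which moves cholesterol into mitochondria, had 0.05 in cow 3, and its other probes had 0.45 and -0.27. SERPINE2, a protease inhibitor of cumulus cells, had -0.30 in cow 3 and -1.20 in cow 2. By the brightest probe of each gene, the highest ratios of the list in cow 3 were those of CCND2, GJA1 and NR5A2. CCND2, a cyclin of proliferating granulosa cells, had 0.35, and the nuclear receptor gene NR5A2 had 0.19. The gap junction gene GJA1 had 0.26, with 0.39 on its dimmer probe. The summed linear level of the list lay between 44465 and 64604 in the controls and between 42455 and 51119 with antagonist, with 51791 and 49201 in cow 3. STAR and SERPINE2 made up 75.6% of the sum in the control of cow 3. For STAR the sum takes the brightest probe, with a mean log2 intensity of 14.33. The STAR probe with 0.45 in cow 3 was almost as bright, at 14.30, so the sum also depends on the probe taken. Without them, a choice made after the values were seen, the sum of the other 18 genes in cow 3 was 12650.1 in the control and 11974 with antagonist. The brightest of these, NR0B1 and NR5A2, had log2 levels of 12.36 and 11.12 in the control of cow 3. With antagonist they had 12.11 and 11.31, so that sum also depends on a few bright genes. Whether RNA of granulosa cells had a part in the INHA and INHBA ratios of cow 3 was not tested.

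Theca and stromal markers had a median of 0.07 in cow 3 over 8 genes, and only VIM exceeded 0.2, with 1.52. Their summed level in cow 3 was 5657 with antagonist and 3257 in the control. Without VIM, left out after its value was seen, the sum of the other 7 genes was 2170.5 with antagonist and 2045 in the control. Blood and endothelial markers had a median of 0.03 in cow 3 over 6 genes, none above 0.12. Oocyte markers matched the label of the samples, with 19 of 20 measured genes above background in all 12 readings. By their brightest probes, 15 of the 20 had a mean ratio above 0, against 51.4% of all probes. At an unadjusted p under 0.05 by limma, 4 were higher and 1 lower, where 12.7% of all probes passed in either direction. The median of the 20 was 0.05 in cow 3. The mean ratio was 0.28 ± 0.24 for GDF9, 0.0037 ± 0.19 for BMP15 and 0.60 ± 0.15 for the zona pellucida gene ZP3 (SD, n = 3). These means differed between dye orientations: with control in Cy5 and with antagonist in Cy5 they were 0.56 and 0.0065 for GDF9, 0.30 and -0.29 for BMP15, and 0.89 and 0.32 for ZP3.

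**Figure D4:**
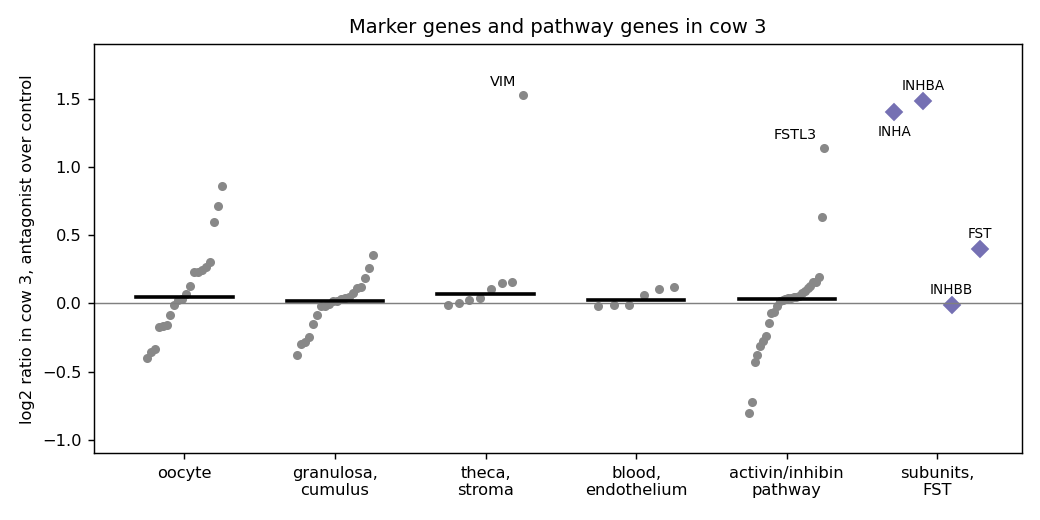
Log2 ratio of antagonist over control in cow 3 (vertical axis) for the measured genes of each list, with the list median as a bar. Each list gene is drawn by its brightest probe only, and the values below are those of these probes. Granulosa and cumulus markers lie between -0.38 and 0.35, VIM at 1.52 and FSTL3 at 1.13 are the list genes above 1, and INHA and INHBA are at 1.40 and 1.48.

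The genes through which activin and inhibin act were taken from a list of 36 pathway genes that leaves out the subunits and FST. Of these, 28 were measured, with a median log2 ratio of 0.03 against 0.0027 for all probes tested, 18 above and 10 below 0. None passed limma's test over all probes. By the brightest probe of each gene, 2 were higher and 4 lower at an unadjusted p under 0.05, or 21.4% of the 28 against 12.7% of all probes. A dimmer probe of the listed gene SKI was also higher, with 0.46 ± 0.24 (limma, unadjusted p = 0.018), and its brightest probe had 0.06. The subunit genes INHBC and INHBE were above background in 0 of 12 readings. The 4 lower genes were TGFBR3, ACVR1, ACVR1B and BAMBI, each with a negative ratio in all 3 cows, and the 2 higher were ACVR2A and DRAP1.

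TGFBR3 had a log2 ratio of -0.66 ± 0.29 (SD, n = 3), with -0.35, -0.92 and -0.73 in the 3 cows and a negative ratio on 6 of 6 arrays. Limma's adjusted p was 0.29 (unadjusted 0.0097). Its dimmer probes gave -0.28 and 0.09. ACVR1B, the type I receptor of activin, had -0.31 ± 0.16, negative in each cow but on only 3 of 6 arrays (limma, adjusted p = 0.33). Its mean was 0.16 with control in Cy5 and -0.79 with antagonist in Cy5. ACVR1, a type I receptor that also serves bone morphogenetic proteins, had -0.75 ± 0.42, negative on 6 of 6 arrays (limma, adjusted p = 0.32), while its dimmer probe had -0.0098.

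Of the type II receptors, ACVR2A had 0.41 ± 0.26, positive on 6 of 6 arrays (limma, adjusted p = 0.35), but its 2 dimmer probes gave -0.17 and -0.09. ACVR2B had 0.07 ± 0.063. BMPR2, the type II receptor of bone morphogenetic proteins and of GDF9, had -0.33 ± 0.46, with 0.10, -0.81 and -0.27 in the cows. Its dimmer probes gave 0.01 and -0.04, the first with -0.27, 0.16 and 0.15 in the cows. ACVR1C, a type I receptor of nodal and activin B, had 0.03 ± 0.046. ACVR2B, BMPR2 and ACVR1C had no unadjusted p under 0.05 by limma.

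FSTL3, a follistatin-like protein that binds activin, had the highest mean of the list, 0.89 ± 0.88, with -0.09, 1.62 and 1.13 in cows 1, 2 and 3 (limma, adjusted p = 0.46). Unlike INHA and INHBA, it was high in cow 2 as well as cow 3. FSTL1, another follistatin-like protein, had -0.22 ± 0.42, and its dimmer probes -0.21 and -0.11. The signal carriers SMAD2, SMAD3 and SMAD4 had -0.28 ± 0.64, 0.06 ± 0.16 and 0.03 ± 0.21. FURIN, a convertase that cleaves subunit precursors, had 0.08 ± 0.059. Its mean was -0.08 with control in Cy5 and 0.25 with antagonist in Cy5, and 3 of 6 control readings were above background.

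Of the further genes of the list, BAMBI, a decoy receptor without a kinase domain, had -0.34 ± 0.22, negative on 6 of 6 arrays, and its dimmer probes had 0.0052 and -0.02. DRAP1, a co-repressor that binds FOXH1, had 0.16 ± 0.039, positive on 6 of 6 arrays, and 0.06 on its dimmer probe. ZFYVE9, which anchors SMAD2 and SMAD3 at receptors, had 0.09 ± 0.039, and PCSK7, a convertase, 0.09 ± 0.068. Their adjusted p-values by limma were 0.36, 0.33, 0.49 and 0.51.

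**Figure D5:**
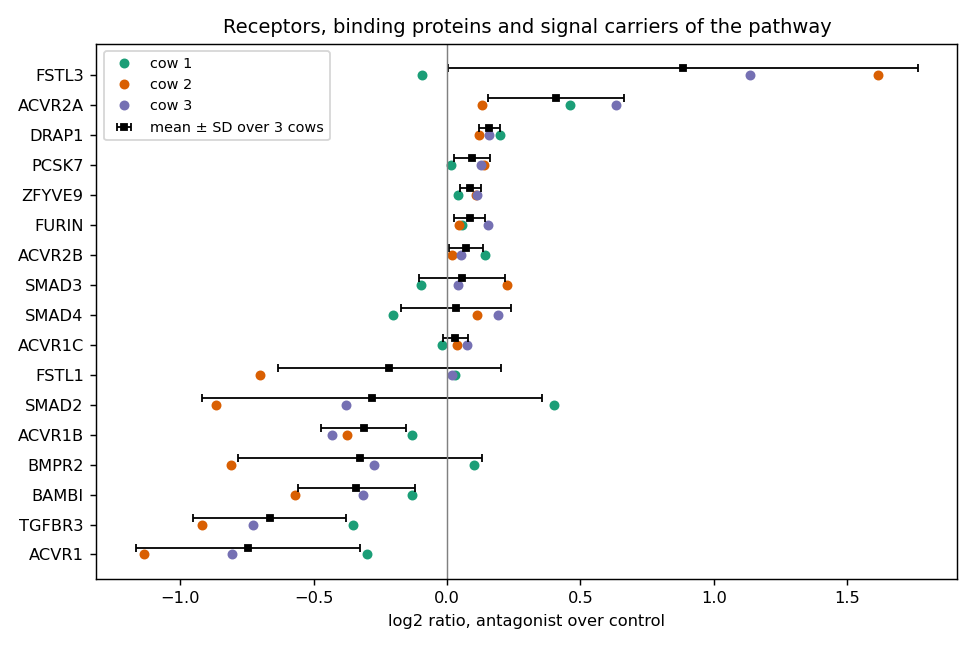
Log2 ratio of antagonist over control (horizontal axis) for the named pathway genes in cows 1, 2 and 3 (points) and as mean ± SD over 3 cows (squares). TGFBR3, ACVR1 and BAMBI lie below 0 in all 3 cows, and FSTL3 lies above 1 in cows 2 and 3 but not in cow 1.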

How the data were processed

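The scanner files hold raw spot intensity and local background per channel, with no correction, per the file headers. The authors' deposited table holds log2 ratios. Against the normalized ratios computed here from the scanner values, it had slopes of 0.96 to 1.01 on bright probes. It so runs antagonist over control on every array. Its column medians were 0.0010, 0.0015, -0.0027, 0.00081, 0.0018 and 0.00039 (cows 1, 2 and 3, control in Cy5 first). Its normalization is unknown.

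Of 45220 spots, 105 marked as ignored on any array were left out. Intensities were corrected by normexp (offset 50) and normalized by loess within arrays, with control spots at weight 0 (limma 3.58.1, R 4.3.3). Single-channel levels were taken after Aquantile scaling. Ratios of a cow's arrays were averaged, and the 3 cows were tested against 0 with limma's lmFit and eBayes, two-sided, with Benjamini-Hochberg adjustment for all 32527 probes. A run on simulated ratios with known shifts required only that the mean estimates returned those shifts, and no error rate is taken from it. Genes with several probes were represented by the brightest. Both conditions of a cow are paired by design, since the labels make each cow its own control.

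Members and lists were chosen with earlier results of these data known. Named were the 4 members, fixed receptors, binding proteins and SMADs with the 4 further pathway genes of smallest p, 9 fixed granulosa genes with the 3 highest in cow 3, the 5 genes nearest to INHA and INHBA each, and 3 oocyte genes. SKI, CDH2, PRSS35 and NR0B1 were added after their values were seen and are not counted with the genes named. Of the 4 member symbols, 4 occur in RefSeq's ARS-UCD2.0 table. No sequences of these genes or probes were used here.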

Additional observations from a re-analysis of the deposited data

How the results depend on the processing

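The INHA and INHBA ratios of cow 3 stayed between 1.21 and 1.58 and between 1.21 and 1.75 under the background, normalization, filter, slide and dye alternatives and in the authors' deposited ratios. Leaving out 1 cow in turn gave means of -0.03 to 0.80 for INHA, -0.14 to 0.80 for INHBA and -0.01 to 0.22 for FST, each lowest without cow 3. For INHBB it gave -0.11 without cow 2 to 0.06 without cow 1. FST had no value among probes above background in all 12 readings. INHBB moved with the dyes, as a single orientation does not cancel them: the mean was 0.60 with control in Cy5, -0.65 with antagonist in Cy5 and -0.44 on the shared slide, and cow 3 gave 0.70, -0.73 and -0.73.

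In place of 0 probes at an adjusted p under 0.05, the arrays with control in Cy5 gave 109, those with antagonist in Cy5 186, separate channels without the pairing 8, and the fit of 6 single arrays with a dye term and each cow as a random replicate block gave 848. In that block fit TGFBR3 (adjusted p = 0.042) and ZP3 (0.028) passed by limma. It takes both arrays of a cow as separate observations, although they hold the same RNAs, so its calls do not rest on more animals. Leaving out 1 cow gave 0. At an unadjusted p under 0.05 the 4143 probes became 10223 and 9401 on the single orientations, 2574 without moderation of the variance, and 1591 to 7408 without 1 cow. The cause was not tested. On arrays with control in Cy5, with antagonist in Cy5 and of the shared slide, the pathway median was -0.064, 0.059 and 0.048, and that of blood and endothelium -0.069, 0.11 and 0.084. Without 1 cow the pathway gave 0.012 to 0.035. The oocyte median was 0.24 and 0.036 on the single orientations and 0.027 with median centring in place of loess. Of 34 genes named, a count that holds INHA but not INHBA, INHBB or FST, 11 had means of opposite sign in the 2 dye orientations. They were ACVR1B, ACVR1C, BMP15, CYP19A1, FSHR, FURIN, NR5A2, SMAD3, SMAD4, STAR and ZFYVE9. INHBB, outside this count, had opposite signs as well, as given above. INHA, INHBB and FST were read near background, FST the nearest, which limits the precision of their ratios.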
